A study of Triticum aestivum with 12 samples.

Results

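The developing grains of 2 wheat genotypes were compared at 14 days after anthesis (DAA), the early phase of grain filling, by means of 6 of the 12 arrays of the study. The 6 arrays were chosen by their labels alone: 3 of IITR26 and 3 of WL711, all harvested at 14 DAA. IITR26 is a landrace of Triticum aestivum with high grain mineral content, and WL711 is a cultivar of the same species with low grain mineral content. Neither genotype carried a treatment or a transgene, and both were grown in the same experimental field. The other 6 arrays held the same genotypes at 28 DAA and are used here only to place the early stage. Each array carried RNA of 3 grains from the middle of the ear, taken from the ears of 3 plants of each genotype and hybridised to the Affymetrix Wheat Genome Array, on which a transcript is read by one or more probe sets. The samples of a group were separate samples, and p-values measure the spread between these samples only. The same replicate number of both genotypes is not stated to mark one plant or day.

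In the weeks after fertilization the wheat grain is a composite organ. The starchy endosperm fills with gliadins, glutenins and starch, the aleurone layer and the embryo gather oil, minerals and protective proteins, the transfer cells import sucrose and amino acids, and the maternal pericarp around them is still green and photosynthetic. Iron and zinc are held mostly in the aleurone and the embryo, bound by ligands such as metallothioneins, nicotianamine and phytate. Many abundant seed proteins, among them puroindolines, thionins, chitinases and protease inhibitors, are also antimicrobial.

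Every value below is a log2 expression value from which the median of that probe set over the 12 arrays was subtracted. A value of 0 is therefore the middle of that probe set's own range, and differences between arrays can be read while brightness cannot. For this reason the presence of a tissue could not be checked by the level of its markers, and no probe set could be set aside as too dim. Log2 fold changes are IITR26 minus WL711, so positive values mean a higher signal in IITR26. No probe sequences were at hand, so a difference in transcript level and one in the sequence under the probes cannot be told apart. A probe set was called when its Benjamini-Hochberg adjusted p in limma was at most 0.01 and its log2 fold change was at least 2 in size, a 4-fold difference. As whole grains were sampled, fewer cells of a type and less RNA per cell cannot be told apart. Grains were matched by days after anthesis, so genotype and the pace of grain development cannot be told apart either.

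The genotype labels of all 6 arrays of 14 DAA held in the data. For each array, probe sets were taken that separated the genotypes by at least 2 log2 units on all of the other 11 arrays, and the array was placed nearer to one genotype or the other. On 10 arrays none of the 70 to 74 such probe sets fell nearer to the opposite genotype, and on IITR26 14 DAA replicate 2 this was so for 2 of 72. WL711 28 DAA replicate 1 stood apart, with 95 of 166 probe sets (57.2%) nearer to IITR26. Of these 95 probe sets, 76 were called at 14 DAA, a count to which their selection contributes, since it required a difference between the genotypes on the other arrays. The array is not part of the comparison at 14 DAA, but it enters the pooled estimate of the spread and all values of 28 DAA, which are therefore given with and without it where it matters.

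Of 61179 probe sets tested, 836 were called at 14 DAA (1.37%). The level was higher in IITR26 for 364 of them (0.595% of all) and lower for 472 (0.772%). Without WL711 28 DAA replicate 1, 886 were called, 835 of them the same probe sets. On all 836 the values of both genotypes did not overlap, as was also so for 31.7% of all probe sets on the array. By the adjusted p alone 6.47% of all probe sets passed, and 5.76% of those outside the annotated list described below. The largest differences in either direction were 9.99 and -8.74 on the log2 scale, and 101 called probe sets differed by at least 5 log2 units.

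**Figure D1:**
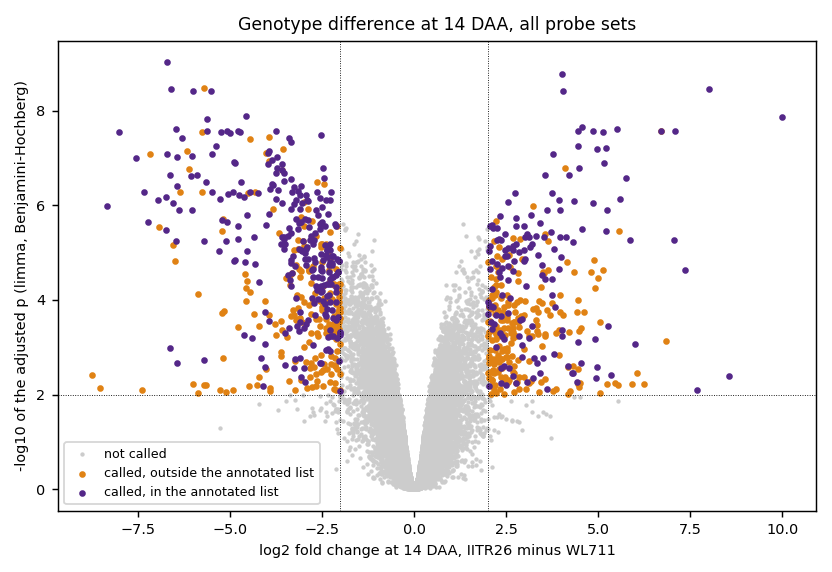
Log2 fold change at 14 DAA (IITR26 minus WL711, x axis) against -log10 of the limma adjusted p (y axis) for 61179 probe sets. Dotted lines mark the thresholds for a call. Of the 836 called probe sets, 416 (purple) belong to the annotated list and 420 (orange) do not, and both kinds are found on either side.

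Names came from 2 sources. A list that accompanied the study pairs 580 of the probe sets with categories, and 431 of those with a putative function. These 580 were chosen on these same arrays, of both stages, so their high share of calls is no independent evidence: 416 of them (71.7%) were called here, 151 higher (26.0%) and 265 lower (45.7%) in IITR26. By the adjusted p alone 80.7% of the list passed, and 89.5% did not overlap between the genotypes. Groups made by putative function are drawn from this list, so 26.0% and 45.7% are the shares to set beside their counts. A group near those shares is not read as a result about its members. Of the 60599 probe sets outside that list, 420 (0.693%) were called, 213 higher and 207 lower.

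By the median of the group means, WL711 at 14 DAA stood furthest from 0 in both directions. Among the 472 probe sets lower in IITR26, the median of the group means was 3.0 in WL711 at 14 DAA, -0.0315 in IITR26 at 14 DAA and -0.0801 in WL711 at 28 DAA. In IITR26 at 28 DAA it was -0.705. In WL711, 320 of the 472 were also called above their own level at 28 DAA, against 1.34% of all probe sets, while in IITR26 6 were called below their own level at 28 DAA, against 1.33% of all. Among the 364 probe sets higher in IITR26, the median was -2.75 in WL711 at 14 DAA and 0.275 in IITR26 at 14 DAA. At 28 DAA it was 0.108 in WL711 and 0.674 in IITR26. For 181 of the 364, WL711 at 14 DAA was called below WL711 at 28 DAA, against 0.958% of all, and for 27 IITR26 at 14 DAA was called above IITR26 at 28 DAA, against 1.59% of all. Neither genotype had such a call for 161 of the 364 and for 146 of the 472. These counts use the WL711 arrays of 14 DAA on both sides and are a description of where the difference lies, not a second test. Without WL711 28 DAA replicate 1 the counts for WL711 were 313 and 181.

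**Figure D2:**
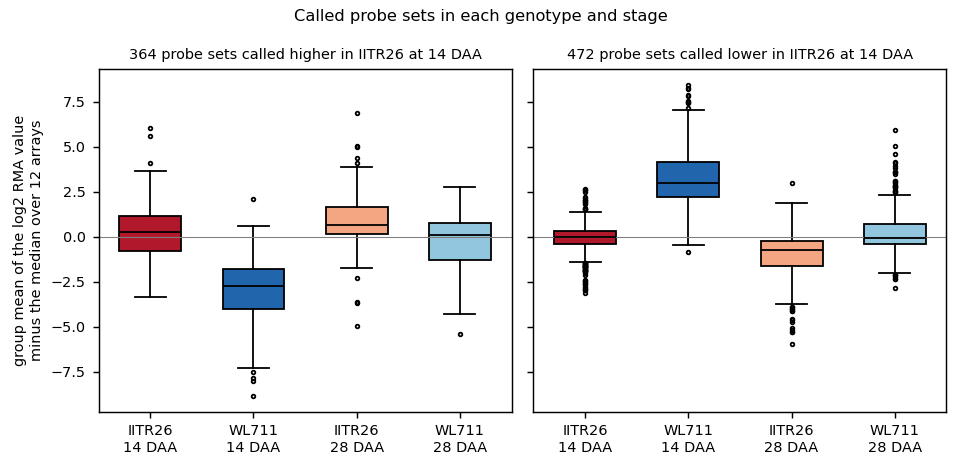
Group means of the log2 value relative to the 12-array median (y axis) in each genotype and stage (x axis) for the 364 probe sets called higher (left) and the 472 called lower (right) in IITR26 at 14 DAA. Boxes span the quartiles with the median as a line, and whiskers reach 1.5 times the box. WL711 at 14 DAA lies below the rest on the left (median -2.75) and above the rest on the right (median 3.0).

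A set of 5 transcripts illustrates both directions, and their qRT-PCR primers are shown because they mark the stretch of each transcript that was amplified from the same kind of grain. The primers are given 5′ to 3′ with the last 5 bases at the 3′ end, where extension starts, in capitals.
Metallothionein forward: gcgagcacgaggatgaggagGAGAA
Metallothionein reverse: cgtacagaactaaggaacacatgaCGGTT
SecE forward: ggggttcgtcggcttcttcgTCAAG
SecE reverse: ccacagatgagacaaaggacgCACAC
LEA protein 12 forward: cgtgcagtacaataaggacgaCGGCC
LEA protein 12 reverse: tgcagattcaggtgctgcgtCGGGA
Aleurone-specific Nam-1 forward: actaaccgagccacgacttCCGGC
Aleurone-specific Nam-1 reverse: cctatactcgtgcatgacccagtTGGTC
LTP family protein forward: actgctagaccgagtatggctcagCTATA
LTP family protein reverse: acacataacagggaacatgcgtGCGTG

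Metallothionein (Ta.28347.1.S1_s_at), a small cysteine-rich protein that binds zinc and copper, had values of 1.49, 1.42 and 1.6 in IITR26 and -2.48, -1.96 and -1.75 in WL711. All 3 IITR26 arrays thus lay more than 3 log2 units above the WL711 arrays, and the log2 fold change was 3.56 (standard error 0.18, limma adjusted p = 2.3e-07). Another probe set of the same transcript cluster, Ta.28347.2.S1_at, differed by 0.13 (limma adjusted p = 0.71). SecE (Ta.29726.2.A1_at), a subunit of the channel that carries proteins across the membrane of the endoplasmic reticulum, stood at 2.86, 2.93 and 2.69 in IITR26 and at -2.99, -2.62 and -2.43 in WL711. Its log2 fold change was 5.51 (standard error 0.19, limma adjusted p = 2.4e-08) and was about as large at 28 DAA (5.04).

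LEA protein 12 (Ta.12657.1.S1_at) belongs to the late embryogenesis abundant proteins, which protect cells against drying. Its values were -1.88, -1.64 and -0.64 in IITR26 and -5.33, -5.43 and -5.28 in WL711, a difference of 3.96 (standard error 0.28, limma adjusted p = 4.6e-06). Both genotypes lay below their level at 28 DAA, and WL711 lay further below it. The lipid transfer protein (LTP) family member Ta.8258.2.S1_at went the other way, with -0.5, 0.03 and -0.11 in IITR26 and 4.85, 4.98 and 4.87 in WL711, a log2 fold change of -5.09 (standard error 0.19, limma adjusted p = 2.7e-08).

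The aleurone-specific Nam-1 transcript (TaAffx.37139.1.S1_at) lay at the edge of the threshold. Its values were -0.64, -0.64 and -0.15 in IITR26 and -2.53, -2.75 and -2.16 in WL711, and the log2 fold change was 2.0 (standard error 0.22, limma adjusted p = 0.00011). Leaving out IITR26 replicate 3, WL711 replicate 1 or WL711 replicate 2 took the difference below 2, to 1.84 at the lowest. The primer list writes this probe set with the prefix Ta, under which the array holds no such number, and the match was made by number and function.

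**Figure D3:**
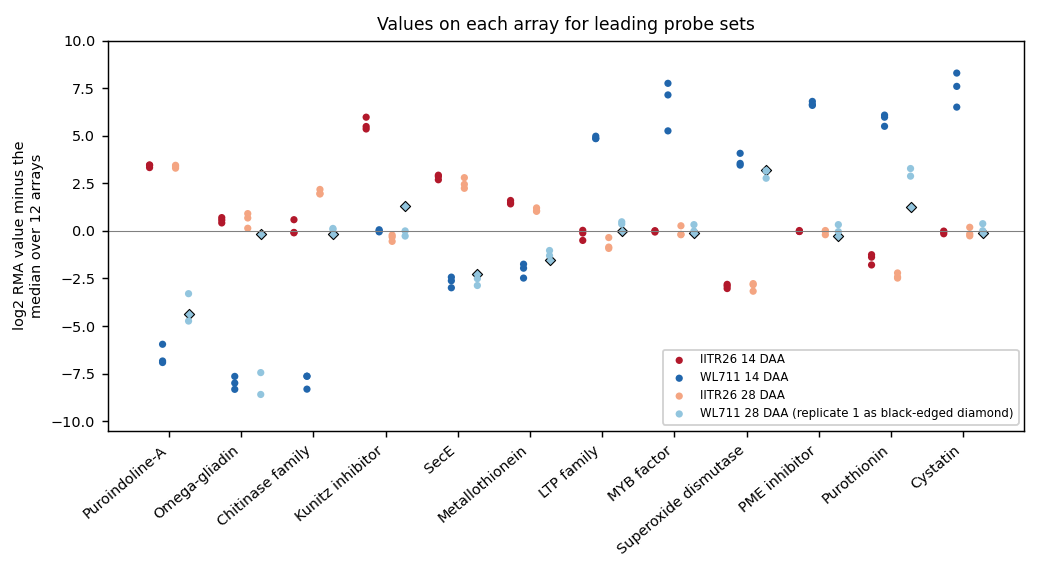
Value on each of the 12 arrays (y axis, log2 value minus the 12-array median) for 12 probe sets (x axis), coloured by genotype and stage, with WL711 28 DAA replicate 1 as a black-edged diamond. Dark red (IITR26) and dark blue (WL711) points of 14 DAA do not overlap in any of the 12. For omega-gliadin the diamond lies with IITR26 and not with the other WL711 arrays.

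Some storage proteins of the endosperm differed strongly, while most of those named by the gene table were not called. Omega-gliadin (Ta.23896.1.S1_at), a sulphur-poor gliadin, stood at 0.57, 0.42 and 0.7 in IITR26 and at -7.65, -8.33 and -8.0 in WL711, a log2 fold change of 8.56 (standard error 1.58, limma adjusted p = 0.0041). At 28 DAA the WL711 values were -8.6 and -7.45 on 2 arrays and -0.14 on replicate 1, the array that stood apart. Without that array the standard error was 0.29 and the adjusted p 1.4e-08, whereas the call was lost without any single one of the 6 arrays of 14 DAA (limma adjusted p 0.016 to 0.019). Alpha gliadin (Ta.24114.18.S1_x_at) was higher in IITR26 by 2.88 (standard error 0.35, limma adjusted p = 0.00026).

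The avenin-like protein (Ta.27712.1.S1_at) was lower in IITR26, with -2.07, -1.39 and -1.72 against 1.88, 1.77 and 1.89 in WL711 and a log2 fold change of -3.58 (standard error 0.17, limma adjusted p = 1.8e-07). A further group of 3 probe sets of cluster Ta.160 moved together. In the annotated list Ta.160.3.S1_x_at is a gamma-gliadin, with 0.21, 0.3 and 0.29 in IITR26 and -5.4, -4.92 and -4.64 in WL711. The array's gene table instead names Ta.160.2.S1_x_at and Ta.160.1.S1_x_at, both outside that list, as a low molecular weight glutenin of the Glu-D3 locus. Their log2 fold changes were 5.25, 5.06 and 3.2, with limma adjusted p of 0.00035, 0.0003 and 0.00057, and Ta.160.2.A1_at of the same cluster differed by -0.2 (limma adjusted p = 0.76). All 3 carry the suffix x, which marks probes that can hybridise to related transcripts.

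By contrast, of 11 probe sets that the gene table names as gliadins or glutenins only the last 2 were called, and the median of the 11 was 0.33, beside 0.0098 for all probe sets tested. Of all 200 probe sets with a gene name, 10 were called higher and 6 lower, with a median of -0.049. Groups made by gene name, here and below, are to be set beside these counts. The alpha-amylase and chymotrypsin inhibitors, further abundant albumins of the endosperm, ranged from -5.5e-05 to 0.273 over 6 probe sets, with none called. Starch genes named in the same way had 1 call in 5. This was beta-amylase BMY1 (Ta.3.1.S1_at), at 2.45, 3.5 and 1.83 in IITR26 and 4.18, 4.75 and 4.89 in WL711, a difference of -2.02 (standard error 0.37, limma adjusted p = 0.0037). Without IITR26 replicate 1 or 3, or WL711 replicate 2 or 3, this call was lost (limma adjusted p 0.015 to 0.018), and after repeated quantile normalization the sign was turned round. That setting acts on the centred values and gives all arrays equal spread. Calls lost under it, here and below, therefore cannot decide whether a difference holds.

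Antimicrobial proteins differed strongly and in both directions. Puroindoline-A (Ta.23141.1.S1_at), which coats starch granules, softens the grain and binds microbial membranes, had the largest difference in favour of IITR26. It stood at 3.33, 3.47 and 3.45 in IITR26 and at -6.84, -6.92 and -5.96 in WL711. The log2 fold change was 9.99 (standard error 0.32, limma adjusted p = 1.3e-08), a ratio of 1020, and 7.51 at 28 DAA. Ta.23141.2.S1_at and Ta.23141.3.S1_x_at of the same cluster differed by 0.13 and 0.15 and were not called.

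Chitinases and xylanase inhibitors, which attack fungal walls or block fungal wall-degrading enzymes, were higher in IITR26 throughout. Of 8 probe sets 7 were called higher and none lower, with a median of 5.2, against 26.0% called higher in the annotated list. By the methods' t-test with Benjamini-Hochberg adjustment 2 were called higher, and after a filter on the coefficient of variation 3. A chitinase family antimicrobial peptide (Ta.1208.1.S1_at) stood at -0.1, -0.08 and 0.59 in IITR26 and at -7.64, -8.32 and -7.64 in WL711. Its log2 fold change was 8.0 (standard error 0.22, limma adjusted p = 3.4e-09). WL711 at 28 DAA lay at -0.17, 0.13 and 0.08, and the difference at that stage was 2.02. Basic endochitinase (Ta.23888.1.S1_at) followed the same course, with -1.39, -1.84 and -0.59 against -6.87, -6.76 and -5.9, a difference of 5.24 (standard error 0.32, limma adjusted p = 1.3e-06) that was -0.16 at 28 DAA. Wheatwin (Ta.9226.1.S1_at), a pathogenesis-related protein counted with this group, differed by 5.21 (standard error 0.36, limma adjusted p = 3.4e-06).

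A further chitinase (Ta.6952.1.S1_a_at) differed by 5.36, with a limma adjusted p of 0.0038 that rose to between 0.014 and 0.018 without any single array of 14 DAA. Its standard error fell from 0.98 to 0.21 without WL711 28 DAA replicate 1. The xylanase inhibitor XIP-I was read by a pair of probe sets of one cluster, Ta.1200.1.S1_x_at inside the annotated list and Ta.1200.1.S1_at outside it. The first stood at -0.7, -0.67 and -0.23 in IITR26 and at -6.7, -7.43 and -5.09 in WL711, and the second at -0.69, -0.69 and -0.33 against -6.52, -6.94 and -4.91. Their log2 fold changes of 5.87 and 5.56 (limma adjusted p = 5.3e-06 and 3.5e-06) fell to 0.0 and -0.08 at 28 DAA.

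Other antimicrobial peptides were lower in IITR26. Of 8 probe sets for defensins, thionins and puroindolines, 3 were called higher and 5 lower. The L-1 antimicrobial peptide precursor (TaAffx.19945.1.S1_at) was higher by 7.36 (standard error 0.65, limma adjusted p = 2.3e-05). A defensin (Ta.20930.1.S1_at) stood at -0.56, -0.47 and 0.03 in IITR26 and at 7.07, 6.8 and 6.78 in WL711, a log2 fold change of -7.22 (standard error 0.47, limma adjusted p = 2.2e-06). A purothionin (TaAffx.102873.1.S1_at), a basic peptide that permeates membranes, stood at -1.79, -1.38 and -1.25 against 5.5, 5.98 and 6.09, a difference of -7.33 (standard error 0.4, limma adjusted p = 5.3e-07).

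That purothionin was not typical of its family. Of 6 probe sets that the gene table names as thionins, none was called lower and the lowest lay at -0.0148, with a median of 0.42. The 1 call among them was TTHV (Ta.19.1.S1_at), which was higher in IITR26 by 2.25 (standard error 0.19, limma adjusted p = 1.9e-05). Among thaumatin-like, dirigent and other pathogenesis-related proteins 5 of 6 were called lower and 1 higher. The thaumatin-like permatin (Ta.2002.1.S1_at) differed by -5.64 (standard error 0.29, limma adjusted p = 3.2e-07). A dirigent family protein (Ta.362.1.S1_at), of a family that steers lignan and lignin coupling, differed by -6.75 (standard error 0.38, limma adjusted p = 6.7e-07).

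Protease inhibitors split evenly, with 5 of 12 called higher and 5 lower. A Kunitz-type inhibitor (Ta.10028.1.S1_at) stood at 5.49, 5.98 and 5.36 in IITR26 and at 0.0, -0.05 and 0.06 in WL711, a difference of 5.6 (standard error 0.32, limma adjusted p = 7.2e-07). In this probe set it was IITR26 that stood apart, and Ta.10028.1.S1_s_at of the same cluster differed by -0.6 (limma adjusted p = 0.29). A Bowman-Birk inhibitor (Ta.20928.1.S1_at), which blocks trypsin-like proteases, was higher in IITR26 by 5.16 (standard error 0.24, limma adjusted p = 1.3e-07) and by 5.31 at 28 DAA. Cystatins, which inhibit cysteine proteases, were lower: Ta.2786.1.S1_at stood at -0.15, -0.05 and -0.01 in IITR26 and at 7.6, 8.3 and 6.51 in WL711, a log2 fold change of -7.54 (standard error 0.34, limma adjusted p = 1e-07). Ta.9883.1.S1_x_at, annotated alike, differed by -6.45 (standard error 0.34, limma adjusted p = 3.9e-07).

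The serpins, suicide inhibitors that are plentiful in the mature grain, leaned one way among probe sets with a gene name. All 5 lay above 0 (1.22 to 2.4, median 1.4, beside -0.049 for all 200 with a gene name), and 1 was called. This was Serpin-Z2B (Ta.117.1.S1_at), at 0.62, -0.47 and 0.76 in IITR26 and -2.0, -1.94 and -2.34 in WL711, a difference of 2.4 (standard error 0.36, limma adjusted p = 0.0012). A serpin domain protein of the annotated list, Ta.9999.3.S1_a_at, was called higher at 2.6, and 2 unnamed probe sets of its cluster were called at 2.22 and 2.01. Proteases themselves were mostly lower in IITR26, 11 of 13 probe sets against 1 higher, although 4 were called lower after repeated quantile normalization and 3 by the methods' t-test with Benjamini-Hochberg adjustment. An aspartyl protease (Ta.792.1.S1_at) differed by -6.62 (standard error 0.98, limma adjusted p = 0.001), and a subtilisin homologue (Ta.8527.1.A1_at), a serine protease, by -4.86 (standard error 0.22, limma adjusted p = 1.2e-07).

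Most groups of cell wall transcripts had more probe sets called lower than higher in IITR26. Pectin methylesterase inhibitors, which keep pectin methylated by blocking the enzyme that demethylates it, were called lower in 14 of 16 probe sets and higher in none, with a median of -4.3 and all 16 below 0. The share in the annotated list called lower was 45.7%. By the adjusted t-test 9 of the 16 were called lower, and after the filter on the coefficient of variation 9. TaAffx.117214.2.S1_s_at stood at -0.03, -0.03 and 0.02 in IITR26 and at 6.6, 6.81 and 6.65 in WL711, a log2 fold change of -6.7 (standard error 0.14, limma adjusted p = 9.4e-10). At 28 DAA the same probe set differed by -0.06. A second, TaAffx.68473.1.S1_at, differed by -6.64 (standard error 0.33, limma adjusted p = 2.3e-07) and by -2.54 at 28 DAA. Without WL711 28 DAA replicate 1 all 16 were called lower, the additions being TaAffx.48045.1.S1_at and TaAffx.5670.2.S1_s_at at -3.02 and -2.11.

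Structural proteins of the wall, such as extensins and hydroxyproline-rich glycoproteins, were called lower in 15 of 18 probe sets and higher in 2. After repeated quantile normalization 9 were called lower, and by the adjusted t-test 5. A glycine-rich protein (Ta.5839.1.S1_at) not annotated to the wall, and so outside this group, was higher in IITR26 by 7.06 (standard error 0.52, limma adjusted p = 5.3e-06). The leucine-rich repeat extensin Ta.9957.1.S1_at stood at 1.21, 0.85 and -0.53 in IITR26 and at 7.6, 7.69 and 7.13 in WL711, a difference of -6.96 (standard error 0.4, limma adjusted p = 7.7e-07). The 2 exceptions included pherophorin-C2 (Ta.24125.1.S1_at), at 3.4, 3.0 and 3.02 against -3.4, -3.22 and -4.03, a difference of 6.69 (standard error 0.24, limma adjusted p = 2.7e-08). Another pherophorin, Ta.13736.1.S1_at, differed by -5.38 (standard error 0.22, limma adjusted p = 5.6e-08), so these proteins did not move as a family.

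Expansins, which loosen the wall during growth, went both ways. Among 7 wall-loosening probe sets 4 were called lower and 2 higher. Expansin TaAffx.128740.2.S1_s_at stood at 0.5, 0.38 and 0.13 in IITR26 and at 5.24, 5.23 and 4.68 in WL711, a log2 fold change of -4.71 (standard error 0.18, limma adjusted p = 2.9e-08). The beta-expansin Ta.3749.1.S1_s_at stood at 2.35, 2.01 and 2.88 against -0.79, -0.22 and -0.56, a difference of 2.94 (standard error 0.36, limma adjusted p = 0.00026) that was turned round at 28 DAA (-5.92, limma adjusted p = 1e-06). Glucan and glycoside hydrolases were called lower in 12 of 18 and higher in 1, with 6 called lower after repeated quantile normalization and 4 by the adjusted t-test. Glucan 1,3-beta-glucosidase (Ta.9958.1.S1_at) differed by -4.69 (standard error 0.24, limma adjusted p = 3.2e-07).

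**Figure D4:**
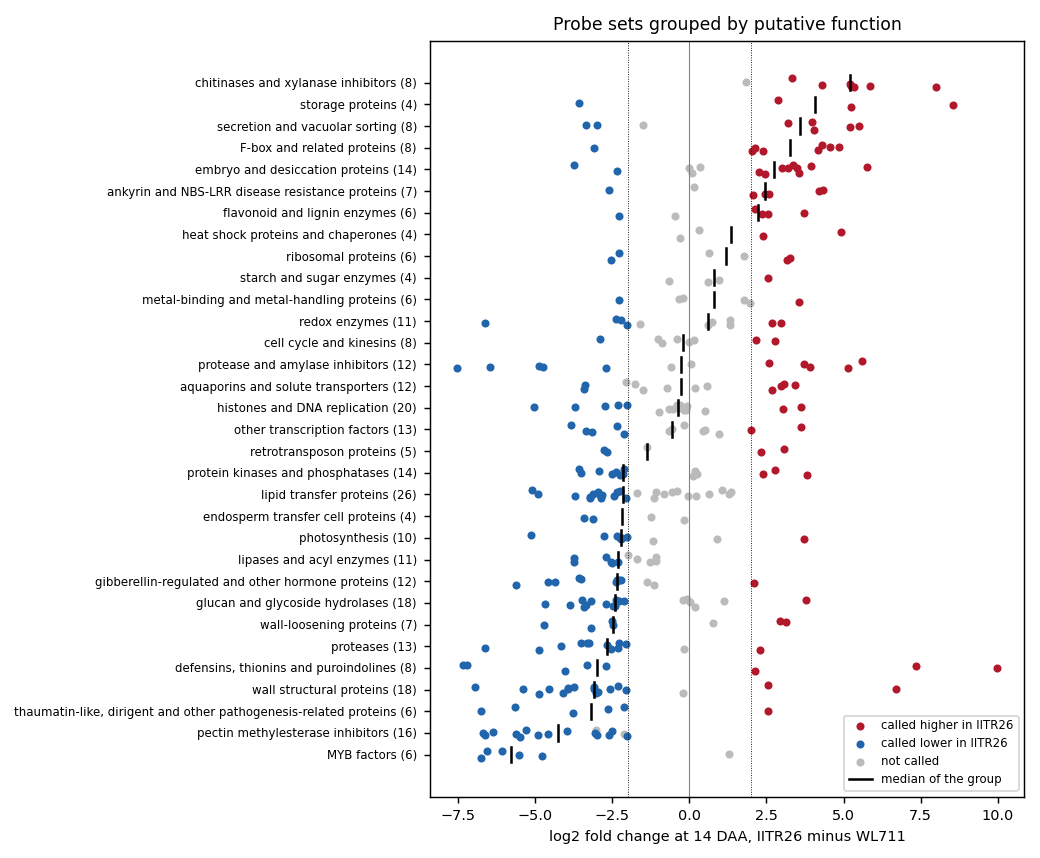
Log2 fold change at 14 DAA (x axis) of the probe sets of 32 groups made from the putative functions of the annotated list (y axis, number of members in brackets), ordered by the group median (black bar). Red and blue points were called higher and lower in IITR26, and grey points were not called. Chitinases and xylanase inhibitors have the highest median (5.2) and MYB factors the lowest (-5.8).

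Lipid transfer proteins carry lipids to the surface of the grain and are among the commonest small proteins of the aleurone and the epidermis. Of 26 probe sets, 14 were called lower in IITR26 and none higher, with a median of -2.1. In the annotated list 45.7% was called lower and 26.0% higher. The count called lower is near that share and is not read as a result about these proteins. The count called lower was 8 after repeated quantile normalization and 1 by the adjusted t-test. Ta.28328.2.S1_x_at, with the values 2.04, 2.96 and 0.97 against 6.82, 6.98 and 6.84, differed by -4.89 (standard error 0.41, limma adjusted p = 1.5e-05). When probe sets with a suffix that marks possible cross-hybridisation were set aside, 4 were called lower. Lipases and acyl enzymes were called lower in 6 of 11, also near the share of the list and so not read as a result, and higher in none. All 11 lay below 0. Their count called lower was 3 after repeated quantile normalization and 3 by the adjusted t-test. Among them, 3-ketoacyl-CoA synthase (TaAffx.111932.1.S1_at), which lengthens fatty acids for cuticular wax, differed by -3.75 (standard error 0.22, limma adjusted p = 7.3e-07).

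MYB factors, regulators of secondary metabolism and cell differentiation, had the lowest median of all groups. Of 6 probe sets, 5 were called lower in IITR26 and none higher, with a median of -5.8. By the adjusted t-test 1 was called lower, and after the filter on the coefficient of variation 3. Ta.27779.1.S1_at stood at -0.06, 0.01 and -0.01 in IITR26 and at 7.15, 7.76 and 5.26 in WL711, a difference of -6.74 (standard error 0.47, limma adjusted p = 3.2e-06). Ta.4557.1.S1_at stood at 0.15, 0.08 and -0.09 against 6.63, 6.51 and 5.19, a difference of -6.06 (standard error 0.3, limma adjusted p = 2.4e-07). On both, WL711 replicate 3 was the lowest of its group, as it was for the cystatins and the dirigent protein. At 28 DAA these MYB probe sets differed by -0.11 and 0.06.

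Hormone-related transcripts were called lower in 9 of 12 probe sets and higher in 1. The count called lower was 4 after repeated quantile normalization and 2 by the adjusted t-test, and without IITR26 replicate 3 or WL711 replicate 1 none was called higher. IAA21 (Ta.3164.2.S1_s_at), a repressor of auxin responses, stood at -2.68, -2.6 and -2.36 in IITR26 and at 3.51, 2.97 and 2.74 in WL711, a log2 fold change of -5.62 (standard error 0.2, limma adjusted p = 2.7e-08) that persisted at 28 DAA (-4.86). A gibberellin-regulated protein (TaAffx.107412.1.S1_at) differed by -4.34 (standard error 0.31, limma adjusted p = 4.6e-06). The 4 probe sets for gibberellin 20-oxidase, which makes active gibberellin precursors, differed by 0.0401 to 0.241, and none was called.

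Of the 14 probe sets that the annotated list places with metals, 7 were called higher, 4 lower and 3 neither, with a median of 1.99. After metallothionein, the ones higher in IITR26 were mainly enzymes of flavonoid and lignin synthesis. A bifunctional dihydroflavonol 4-reductase (TaAffx.35126.1.A1_at) stood at -1.92, -1.76 and -0.72 in IITR26 and at -5.17, -5.46 and -4.89 in WL711, a difference of 3.71 (standard error 0.26, limma adjusted p = 3.7e-06). Cinnamoyl-CoA reductase (Ta.6822.1.S1_at), at the entry to the lignin branch, differed by 2.54 (standard error 0.15, limma adjusted p = 8.6e-07), and dihydroflavonol-4-reductase (Ta.8881.1.S1_at) by 2.12 (standard error 0.18, limma adjusted p = 1.5e-05). Flavanone 3-hydroxylase (Ta.14243.1.A1_at) differed by 2.35 (standard error 0.4, limma adjusted p = 0.0027). That call was lost without IITR26 replicate 1 or 3 or WL711 replicate 1 or 2, with limma adjusted p of 0.01 to 0.016. The calls of TaAffx.35126.1.A1_at, Ta.6822.1.S1_at and Ta.8881.1.S1_at were lost after repeated quantile normalization and by the adjusted t-test.

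Transition metal ion binding protein (Ta.24550.2.S1_s_at) and manganese ion binding protein (Ta.5280.3.S1_at) stayed just under the fold threshold. Their differences were 1.98 (standard error 0.14, limma adjusted p = 3.2e-06) and 1.77 (standard error 0.14, limma adjusted p = 8.5e-06), and the arrays did not overlap for either. Nicotianamine synthase 3 (Ta.771.1.S1_at), which makes the iron and zinc chelator nicotianamine, differed by -0.19 (standard error 0.16, limma adjusted p = 0.57) and was called lower only at 28 DAA (-2.49).

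The metal-related transcripts lower in IITR26 were an oxidase, a pair of phosphatases and a calcium-binding protein. Glycolate oxidase (Ta.10548.1.S1_at), a peroxisomal enzyme of photorespiration, stood at -1.34, -1.55 and -1.11 in IITR26 and at 1.1, 2.14 and 2.18 in WL711, a log2 fold change of -3.14 (standard error 0.24, limma adjusted p = 8.5e-06). A pair of protein phosphatases, Ta.3862.1.S1_at and Ta.28543.1.A1_at, differed by -2.39 and -2.13. Calreticulin 1 (Ta.368.1.S1_x_at), a calcium store of the endoplasmic reticulum, differed by -2.08 (standard error 0.25, limma adjusted p = 0.00023), and leaving out IITR26 replicate 3 or WL711 replicate 2 took it below 2, to -1.95. By the adjusted t-test the calls of glycolate oxidase, Ta.28543.1.A1_at and calreticulin 1 were lost. Repeated quantile normalization ended those of both phosphatases and of calreticulin 1.

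Transcripts of protein sorting and of F-box proteins were mostly higher in IITR26. Secretion and vacuolar sorting proteins were called higher in 5 of 8 and lower in 2, the latter falling to 1 without any single array of 14 DAA. At 28 DAA 4 were called higher, where 0.566% of all probe sets were (0.731% without WL711 28 DAA replicate 1), but as the annotated list was chosen on both stages nothing is read from that count. The vacuolar-sorting receptor (Ta.9898.1.A1_at), which sends storage proteins to the vacuole, stood at 3.56, 3.39 and 3.44 in IITR26 and at -1.8, -1.72 and -1.7 in WL711, a difference of 5.21 (standard error 0.22, limma adjusted p = 6.2e-08). F-box and related proteins, which select proteins for ubiquitination, were called higher in 7 of 8 and lower in 1. At 28 DAA 3 were called higher and none lower, or 5 and 1 without WL711 28 DAA replicate 1. TaAffx.120564.1.A1_at stood at 2.37, 2.36 and 2.46 against -2.23, -2.58 and -2.59, a difference of 4.86 (standard error 0.18, limma adjusted p = 2.7e-08) and of 4.9 at 28 DAA. The count of F-box probe sets called higher at 14 DAA fell to 4 after repeated quantile normalization or without any single array of 14 DAA other than WL711 replicate 2.

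Ankyrin and disease resistance proteins were called higher in 5 of 7 probe sets and lower in 1, and without IITR26 replicate 2 in 3. Ankyrin repeat protein Ta.12273.1.A1_at differed by 4.34 (standard error 0.25, limma adjusted p = 8.2e-07) and by 4.61 at 28 DAA. Aquaporins and solute transporters were called higher in 4 of 12 and lower in 2, and the count called higher fell to 1 without any single array of 14 DAA. Among them, the plasma membrane aquaporin PIP1 (Ta.2895.1.S1_x_at) differed by 3.41 (standard error 0.61, limma adjusted p = 0.0035), with a limma adjusted p of 0.011 to 0.018 without any single array of 14 DAA. The amino acid transporter Ta.27916.1.A1_x_at differed by -3.41 (standard error 0.23, limma adjusted p = 3.1e-06).

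Embryo and desiccation proteins, markers of the embryo and the aleurone, were called higher in IITR26 in 9 of 14 probe sets and lower in 2, with a median of 2.7. An abscisic acid related protein (Ta.10310.3.S1_at) stood at 3.06, 3.61 and 3.46 in IITR26 and at -2.3, -3.08 and -1.79 in WL711, a difference of 5.77 (standard error 0.29, limma adjusted p = 2.6e-07). Cluster Ta.154 held 6 called probe sets, with log2 fold changes of 2.42 to 4.47, of which Ta.154.1.S1_x_at is annotated as embryo globulin, a storage protein of the embryo, and 5 lie outside the annotated list. Late embryogenesis abundant group 1 (Ta.13165.2.S1_at) went against the group at -3.74 (standard error 0.18, limma adjusted p = 2e-07), although Ta.13165.3.S1_a_at of its cluster differed by 0.81. After quantile normalization was repeated the count called higher was 3, and by the adjusted t-test it was 0. Among maturation proteins known by gene name (LEA, Em, Rab15, COR410, PER1) 11 of 12 lay above 0, with a median of 1.2, and none was called.

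Stress and redox transcripts were mixed. A small heat shock protein of class I (Ta.24332.1.S1_at) stood at 4.92, 1.3 and 1.92 in IITR26 and at -2.09, -2.57 and -1.96 in WL711, so that 1 IITR26 array lay 3 log2 units above the others. Its difference was 4.92 (standard error 0.69, limma adjusted p = 0.00066), and the call was lost in the fit of the 14 DAA arrays alone. Redox enzymes were called lower in 4 of 11 and higher in 2. Superoxide dismutase (Ta.1944.1.S1_at), which removes superoxide, stood at -3.03, -2.81 and -2.9 in IITR26 and at 4.08, 3.55 and 3.46 in WL711, a log2 fold change of -6.61 (standard error 0.18, limma adjusted p = 3.4e-09) and of -5.97 at 28 DAA.

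Photosynthetic transcripts, which in a grain mark the green pericarp, were called lower in IITR26 in 7 of 10 probe sets, with a median of -2.2. The 1 called higher, Ta.7254.1.S1_at at 3.73, is annotated as both RBCL 1 and PPR repeat family, so its place in this group is unsure. A light-harvesting chlorophyll a/b protein (Ta.3249.1.S1_at) stood at 1.34, 0.13 and -0.13 in IITR26 and at 6.26, 5.4 and 5.03 in WL711, a difference of -5.12 (standard error 0.38, limma adjusted p = 5.6e-06). After repeated quantile normalization 2 were called lower, and by the adjusted t-test 1. Nuclear photosynthesis genes known by name, such as PsbO and PsbP of photosystem II, differed by -1.27 to 0.206 over 9 probe sets, and none was called. The 28 probe sets of the Rubisco large subunit had a median of -0.046, with none called. The part of the green pericarp in the lipid transfer, wall and hormone values was not tested.

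Markers of dividing cells had few calls at this stage. Histones and replication proteins were read by 20 probe sets, of which 5 were called lower and 2 higher. Their median was -0.37, with 17 of the 20 below 0. The annotated list they come from had a median of -1.2, with 45.7% called lower and 26.0% higher. No lean of this group beyond that of the list is therefore read. At 28 DAA 17 were called lower, where 0.804% of all probe sets were, but the list was chosen on that stage too and nothing is read from that count. Proliferating cell nuclear antigen (TaAffx.19277.1.S1_at), the sliding clamp of DNA replication, stood at -2.05, -1.73 and -1.9 in IITR26 and at 1.6, 2.19 and 1.62 in WL711, a difference of -3.69 (standard error 0.2, limma adjusted p = 4.7e-07). Protein H2A.6 (Ta.27657.1.S1_at) stood at -1.15, -1.64 and -1.2 in IITR26 and at 4.24, 3.66 and 3.24 in WL711, a difference of -5.04 (standard error 0.28, limma adjusted p = 5.8e-07). Other probe sets of the same cluster lay between -0.71 and 0.62, other than Ta.27657.14.S1_x_at at -2.37. Histone H2B was read in opposite directions within cluster Ta.7378, at -2.72 for Ta.7378.14.S1_at and at 2.07 and 2.26 for Ta.7378.1.S1_at and Ta.7378.17.S1_x_at. The call of Ta.7378.1.S1_at was lost without any single array of 14 DAA other than IITR26 replicate 2 (limma adjusted p 0.012 to 0.017). Of 4 probe sets grouped as endosperm transfer cell proteins 2 were called lower and none higher. ZmEBE-1 (Ta.14030.1.S1_at) differed by -3.11 (standard error 0.39, limma adjusted p = 0.0003) and PR60 by -0.173. The other call was MFS18 (Ta.2809.1.S1_s_at) at -3.4, which is annotated with the vascular bundle and not with transfer cells.

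The remaining groups were small or mixed. Their counts stand beside 45.7% called lower and 26.0% called higher in the annotated list, and nothing is read from them. Protein kinases and phosphatases were called lower in 8 of 14 and higher in 3, other transcription factors lower in 5 of 13 and higher in 2, and cell cycle proteins lower in 1 of 8, CYCLIN B2 (Ta.6253.1.S1_at) at -2.9, and higher in 2. Among the other transcription factors, a GATA zinc finger protein (Ta.7430.1.S1_at) differed by 3.61 (standard error 0.22, limma adjusted p = 1.3e-06) and a zinc finger family protein (TaAffx.40701.1.S1_at) by -3.83 (standard error 0.2, limma adjusted p = 3.7e-07). Retrotransposon proteins, with 5 probe sets, and ribosomal proteins, with 6, each had 2 called higher and 2 lower. Starch and sugar enzymes had 1 of 4 called higher, an alpha-amylase (TaAffx.12648.1.S1_at) at 2.55 (standard error 0.2, limma adjusted p = 8.2e-06). Heat shock proteins and chaperones had 2 of 4 called higher, and 1 in the fit of the 14 DAA arrays alone. By the adjusted t-test, or after the filter on the coefficient of variation, 0 were called. One of the 2, the chaperone TaAffx.128.1.S1_at, lost its call without any single array of 14 DAA. The 6 flavonoid and lignin enzymes had 4 called higher and 1 lower, with 1 called higher after repeated quantile normalization and none by the adjusted t-test.

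The 420 called probe sets outside the annotated list had no putative function there. Their differences were somewhat smaller, with a median size of 2.67 for those higher and 2.79 for those lower in IITR26, against 3.19 and 3.1 inside the list. Their median standard error was larger, 0.35 against 0.244. The suffixes x, s and a, which mark probes shared between transcripts, were carried by 37.4% of them, by 21.6% of those inside the list and by 20.8% of all probe sets. An unadjusted t-test at the methods' threshold was missed by 51 of the 420 and by 1 of the 416. A coefficient of variation below 50%, computed here within each of the 4 groups on the linear scale, was missed by 222 of the 420 and by 110 of the 416. The methods name such a filter without its scale or groups, and as 110 probe sets of their list missed the one computed here, it is not the filter the list passed.

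The array's gene table gave a gene to 31 of the 420, 21 higher and 10 lower in IITR26, and a gene name to 10 of the 31. In addition to XIP-I, the glutenins, the serpin, TTHV, beta-amylase and the histones, these included WGA2 (Ta.147.1.S1_at), the wheat germ agglutinin that binds chitin. It stood at -3.69, -4.52 and -1.8 in IITR26 and at -6.84, -6.74 and -7.09 in WL711, a difference of 3.55 (standard error 0.49, limma adjusted p = 0.00059), and its call was lost in the fit of the 14 DAA arrays alone. IITR26 replicate 3 lay well above the other arrays of its group. In 5 of the 31 cases the gene was one that the annotated list also holds. For the beta-expansin, Ta.3749.1.S1_at outside the list differed by 2.66 (standard error 0.42, limma adjusted p = 0.0015), close to the 2.94 of its partner, and leaving out IITR26 replicate 3 ended the call (limma adjusted p = 0.01).

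**Figure D5:**
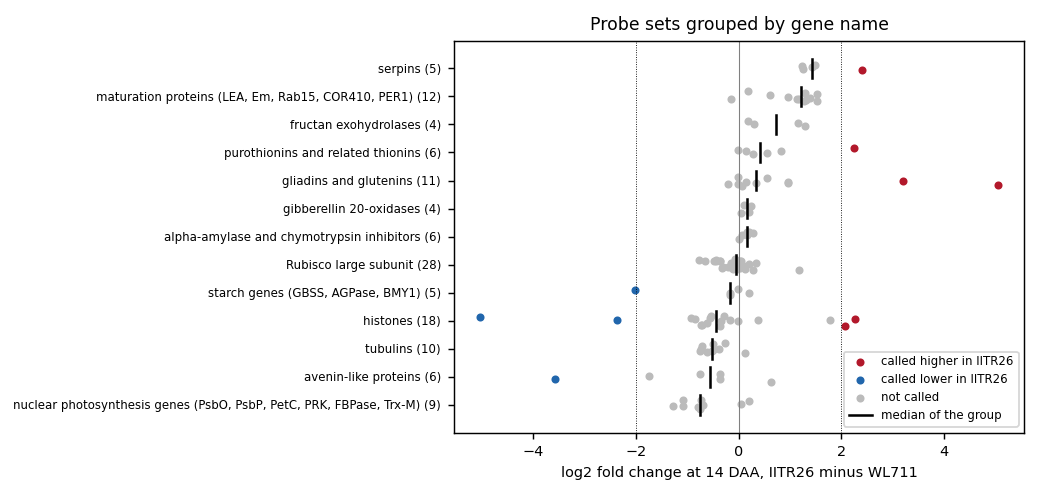
Log2 fold change at 14 DAA (x axis) for probe sets grouped by the gene names of the array's gene table (y axis, number of members in brackets), with the median as a black bar and calls in red (higher in IITR26) and blue (lower). Serpins have the highest median (1.4) and lie above 0 throughout, while most gliadins, amylase inhibitors and Rubisco probe sets lie close to 0.

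The largest differences without any name reached the size of the named ones. Ta.29640.1.S1_x_at stood at -0.23, 0.02 and -0.69 in IITR26 and at 8.45, 8.48 and 8.38 in WL711, a log2 fold change of -8.74 (standard error 1.6, limma adjusted p = 0.0039). Ta.14049.1.S1_at differed by -8.51 (standard error 1.73, limma adjusted p = 0.0071) and Ta.28744.1.S1_at by -7.38 (standard error 1.53, limma adjusted p = 0.008). On all 3 the genotypes lay far apart at 14 DAA, and on WL711 28 DAA replicate 1 they lay at the IITR26 level. Their standard errors without that array were 0.26, 0.26 and 0.16, and with it each call was lost without any single array of 14 DAA (limma adjusted p 0.014 to 0.031). The calls of Ta.14049.1.S1_at and Ta.28744.1.S1_at were also lost without any 1 IITR26 array of 28 DAA. By contrast, Ta.10042.1.S1_at, at 0.75, 0.82 and -0.48 against 7.75, 7.64 and 7.17, differed by -7.16 (standard error 0.31, limma adjusted p = 8.4e-08) and by -0.99 at 28 DAA.

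Among unnamed probe sets higher in IITR26, Ta.1550.1.S1_at stood at 1.04, 1.21 and 1.0 in IITR26 and at -5.71, -5.96 and -5.57 in WL711, a difference of 6.83 (standard error 0.97, limma adjusted p = 0.00075). Its cluster also holds Ta.1550.2.S1_x_at, annotated as a trypsin/alpha-amylase inhibitor, at 3.73. TaAffx.24809.1.S1_x_at stood at 3.36, 4.1 and 3.52 against -3.03 on every WL711 array, a difference of 6.69 (standard error 0.24, limma adjusted p = 2.7e-08), and of 6.35 at 28 DAA. Its identical values in WL711 are as deposited. Ta.2434.1.A1_at differed by 6.26 and Ta.5257.2.S1_x_at by 6.06, and both calls were lost without any single array of 14 DAA (limma adjusted p 0.013 to 0.025), the first also without IITR26 28 DAA replicate 1 or 3, while without WL711 28 DAA replicate 1 the adjusted p were 4.9e-09 and 1.2e-08.

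Probe sets of one transcript cluster offered a comparison within the array. Of the 836 called, 394 had at least 1 further probe set in their cluster. For 230 of these a cluster mate was called in the same direction, and for 6 one was called in the opposite direction, beside 1.62% called among all 24380 probe sets that have a mate. Such agreement can come from shared probes as well as from shared transcripts. Cluster TaAffx.117214, in which only TaAffx.117214.2.S1_s_at is annotated, as the pectin methylesterase inhibitor above, was called with 3 probe sets at -6.7, -6.17 and -5.71, and cluster Ta.8220, annotated through its member Ta.8220.3.S1_x_at as a BRI1-associated receptor kinase, with 5 at -3.52 to -2.06. Calls in both directions were found in 2 clusters, the histone cluster Ta.7378 and cluster Ta.23366, in which Ta.23366.2.S1_at, annotated as a peroxidase, differed by 2.98 and Ta.23366.3.A1_at by -2.12.

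Most of the early differences were not called at 28 DAA. Of the 836, 178 were called in the same direction at 28 DAA and 12 in the opposite direction, beside 1.37% called at that stage over all probe sets. Without WL711 28 DAA replicate 1 these counts were 273 and 14, beside 1.8%. The difference between the stages itself was called for 356 of the 836 (42.6%), against 1.53% of all probe sets (0.796% shifted toward IITR26 at 14 DAA and 0.729% toward WL711), and for 329 without that array. As the values of 14 DAA enter both, that share is a description. Puroindoline-A, SecE, superoxide dismutase, IAA21, the Bowman-Birk inhibitor and the F-box protein TaAffx.120564.1.A1_at belonged to the lasting differences, and the cystatins, MYB factors, xylanase inhibitor and TaAffx.117214 to those seen at 14 DAA.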

How the data were processed

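The deposited table holds log2 expression values for 12 arrays. The authors summarised the probes of each probe set by RMA, an algorithm that includes quantile normalization, in GeneSpring GX, and the values as deposited are each probe set's log2 value minus its median over the 12 arrays, a centring found from the values. Control probe sets were set aside, leaving 61179. A model with 4 groups (genotype by stage) was fitted over 12 arrays with limma 3.58.1 in R 4.3.3, with Benjamini-Hochberg adjustment over all 61179, and tested on simulated data. With 3 arrays against 3, an exact permutation test of a single value cannot go below 0.1 (two-sided), so no such test was run, and precision is set by how few arrays there are. Tables and figures were made with pandas 2.3.3, numpy 2.4.6 and matplotlib 3.10.9. Alternatives were the methods' t-test, a coefficient of variation filter (within groups, linear scale, as the methods do not define theirs), repeated quantile normalization, aligned medians, other thresholds, array weights, robust shrinkage, fits of 14 DAA alone, a replicate block, and leaving out each array. Quantile normalization was repeated on the centred values, with standard deviations of 0.297 to 0.349 on the IITR26 arrays of 14 DAA. On the WL711 arrays of 14 DAA they were 0.597 to 0.631, and this setting makes the spread of all arrays equal.

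Named probe sets were the 15 highest and 15 lowest called with a function, up to 4 called members of each group, outside the annotated list the 12 highest and 12 lowest with a gene name and the 6 highest and 6 lowest without one, those with primers or placed with metals, and the 8 largest differences between stages of each sign. Cluster mates, whole clusters and PR60 were named after their values were seen. Members, groups and lists were chosen with earlier results of these data known, and the gene-name groups were written after values were seen. Groups the report does not describe had no call: 10 tubulins (median -0.51, 9 below 0) and 4 fructan exohydrolases (median 0.72). Of 6 avenin-like probe sets by gene name 1 was called lower, and of 6 metal-binding proteins by function 1 was called higher and 1 lower.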

Additional observations from a re-analysis of the deposited data

Results flagged for a closer look

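The genotype difference differed between 14 and 28 DAA for 933 probe sets, by a test of that difference itself in the limma model (adjusted p at most 0.01 and at least 2 log2 units), and for 966 without WL711 28 DAA replicate 1. Values below are the difference at 14 DAA minus that at 28 DAA. Among probe sets named by function and shifted toward WL711 at 14 DAA, the values were -7.37 for the cystatin Ta.2786.1.S1_at, -7.12 for the extensin Ta.9957.1.S1_at and -6.64 for the pectin methylesterase inhibitor TaAffx.117214.2.S1_s_at. The MYB factors Ta.27779.1.S1_at, Ta.25687.1.S1_at and Ta.4557.1.S1_at gave -6.63, -6.30 and -6.12. The dirigent protein Ta.362.1.S1_at gave -6.60 and the cystatin Ta.9883.1.S1_x_at -6.49.

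Those shifted toward IITR26 were led by the beta-expansin Ta.3749.1.S1_s_at at 8.86 and flavanone 3-hydroxylase Ta.14243.1.A1_at at 7.55. An ice recrystallization inhibition protein (Ta.7108.1.S1_at) gave 7.14, a glycine-rich protein (Ta.5839.1.S1_at) 7.07 and an expansin (Ta.3729.1.A1_at) 6.94. The Kunitz inhibitor Ta.10028.1.S1_at gave 6.31, the chitinase family peptide Ta.1208.1.S1_at 5.98 and the xylanase inhibitor Ta.1200.1.S1_x_at 5.88. Without WL711 28 DAA replicate 1 these 16 values kept their signs, with -7.27 for the first and 9.25 for the beta-expansin.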

How the results depend on the processing

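The 836 calls at 14 DAA (364 higher, 472 lower) rest on 3 arrays a genotype. Leaving out single arrays gave 660 to 886 calls, 262 to 385 higher and 398 to 501 lower. Outside the annotated list these were 137 (without IITR26 14 DAA replicate 3) to 232 higher and 150 to 230 lower, at 28 DAA 744 to 1099 calls, and 784 to 966 for the difference between stages. Of 166 named calls 136 held in all 12 such fits, 104 were lost by the adjusted t-test below, and repeated quantile normalization ended 58 and reversed 1. The methods' t-test with Benjamini-Hochberg adjustment gave 219 calls, 92 higher and 127 lower, 35 and 40 outside the list, and 1 at 28 DAA, against 837 without adjustment. A filter of the kind the methods name, on the coefficient of variation within groups as computed here, gave before limma 504, 181 higher, with 85 and 113 outside the list. Repeated quantile normalization gave 292 lower, 124 of them outside the list, and 482 at 28 DAA, sharing 405 of the 836, and turned Ta.3.1.S1_at to 1.03 (limma adjusted p = 0.29). Without suffixes x, s and a there were 242 higher, 121 and 132 outside the list, 553 at 28 DAA and 581 between stages. At a log2 fold change of 1 there were 2420, 1003 higher and 1417 lower, 831 and 1127 outside the list, 3201 at 28 DAA and 2510 between stages. The cause of these shifts was not tested beyond the fewer probe sets, looser threshold or equal spread of arrays that some settings impose. With the replicate number as a block 825 were called, 818 of them shared, and the calls of Ta.28695.6.S1_at, Ta.28744.1.S1_at and Ta.4613.1.S1_at were lost. Deviations of same-numbered samples of 14 DAA correlated at 0.0349, 0.155 and 0.188, and those of differently numbered samples at -0.208 to 0.0756. Whether same-numbered samples are related was not tested. The numbers are not stated to mark a shared plant or day, so they were not used to pair samples.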
